A study of Drosophila melanogaster with 6 samples.

Results

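The cytosolic Hsp90 of Drosophila melanogaster, its constitutive Hsp70 and the proteins that work with them are encoded here by 10 genes: Hsp83, Hsc70-4, Hsc70Cb, stv, DnaJ-1, Droj2, Stip1, Cdc37, Fkbp59 and Hsf. They were picked by symbol from a table of 13189 genes, and all 10 were found. Fkbp59 is written FKBP59 in the table and was matched through its gene identifier. All 10 also passed the filter on low counts, as did 5639 genes in all. The study compared midgut progenitor cells, the stem cells and undifferentiated daughters that renew the fly gut epithelium, in 3 libraries of wild-type flies (labelled control) and 3 labelled Pex5-depleted. Pex5 is the receptor that brings enzymes into peroxisomes. Each library came from about 40000 cells sorted for GFP from 200 guts after 1 hour in elastase at 27 °C. The gate was set on flies with GFP driven by escargot (esg), a progenitor gene, and on w1118 flies without GFP. The labels give no sex or age and do not say how Pex5 was depleted.

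Hsp70 chaperones bind stretches of unfolded protein and let go of them in a cycle driven by ATP. J-domain proteins (Hsp40s) speed ATP hydrolysis by Hsp70, and nucleotide exchange factors such as Hsp110 and BAG proteins open the cycle again. Hsp90 takes over clients such as kinases and steroid receptors, often from Hsp70 through the adaptor Hop, and heat shock factor (Hsf) is the transcription factor that drives many of these genes under stress.

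The libraries held 2573882 to 4793433 unique molecular identifiers (UMIs), each standing for a captured transcript molecule, and 8890 to 10349 detected genes. Values are given in CPM, which are UMI counts scaled to a common library size and composition. A count of 0 in a library allows up to 3 UMIs, or 0.630 to 1.09 CPM, for counting error only. Pex5 itself was counted 8, 6 and 14 times in controls against 2, 21 and 41 times under the Pex5-depleted label. Its log2 fold change was 1.24 (SE 0.87), and edgeR's quasi-likelihood test gave it 0.607 as adjusted p. The transcript thus was not measurably lower under that label, so the group is called by its label and every direction rests on it. Of 15 listed progenitor markers 14 were tested and edgeR called 0 (2 at an unadjusted p under 0.05), with a summed level of 1211 to 1479 CPM in the controls and 1236 to 1812 CPM in the other group. Esg was present in all 6 libraries (29.6 to 65.9 CPM). Of 6 tested immediate early genes of tissue dissociation 0 passed (257 to 350 against 305 to 317 CPM). Of 14 tested enteroendocrine markers 3 fell and 0 rose (sums of 1154 to 3245 against 601 to 1097 CPM). At an unadjusted p under 0.05 edgeR gave 10 of them lower and 0 higher. Of 14 tested enterocyte markers 2 rose and 0 fell (376 to 877 against 920 to 1092 CPM), while the enterocyte factor nub had at most 1.37 CPM in any library. At the same unadjusted p, 5 enterocyte markers were higher and 0 lower. Past the threshold, 0.833% of all tested genes rose and 0.816% fell, and 6.54% and 6.67% did so at the unadjusted p. Visceral muscle markers summed to 70.3 to 82.2 CPM in the controls and 46.2 to 67.3 CPM in the other group, with 0 of 2 tested markers past the threshold. Sums of haemocyte markers were 11.3 to 20.5 CPM over all libraries, those of trachea and neuron markers 7.50 to 17.8 CPM, and those of fat body markers 2.39 to 4.27 CPM in the controls and 3.42 to 51.5 CPM in the other group. The highest fat body sum was that of the replicate labelled Pex5-depleted 2, with 65 UMIs of Yp1 and 135 of Yp3. Most of the haemocyte sum was crq, while Hml had at most 0.342 CPM. Only 1 haemocyte marker, 2 trachea and neuron markers and 0 fat body markers could be tested, and none passed. The haemocyte markers NimC1 and eater, the fat body markers Fbp2 and Lsp2 and the tracheal marker trh had no row in the table. Transcripts of the mitochondrial genome took 6.30% ± 0.990 of UMIs in the controls and 8.74% ± 0.643 in the other group (SD, n = 3 each). The part of these other cell types and of the mitochondrial share in the results below was not tested.

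Among the 10 genes, the abundant chaperones Hsp83 and Hsc70-4 rose about 2-fold in the libraries labelled Pex5-depleted, with fold changes of 1.95 and 1.90, and no member fell. The Hsp110 gene Hsc70Cb, the BAG domain gene stv and the class A Hsp40 gene Droj2 had fold changes of 1.996, 2.15 and 1.77 without passing the test over all genes. The Hsp90 cochaperone genes Stip1, Cdc37 and Fkbp59 stood within 1.03 to 1.10 times the control level, and the class B Hsp40 gene DnaJ-1 at 0.868 times. Of the 10 log2 fold changes 9 were above 0, as were 52.7% over all tested genes. In counts, 2 of 10 members were past an adjusted p of 0.05 in the higher direction and 0 in the lower, where 0.833% and 0.816% of all tested genes were. The CPM values of 5 of 10 members lay wholly above the controls, as did those of 9.74% of all tested genes, and 0 lay wholly below, against 9.42%. The median log2 fold change was 0.59 over the members and 0.03 over all tested genes. In sorted bulk cells, more RNA per cell and more cells of a type that makes much of it cannot be told apart.

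**Figure D1:**
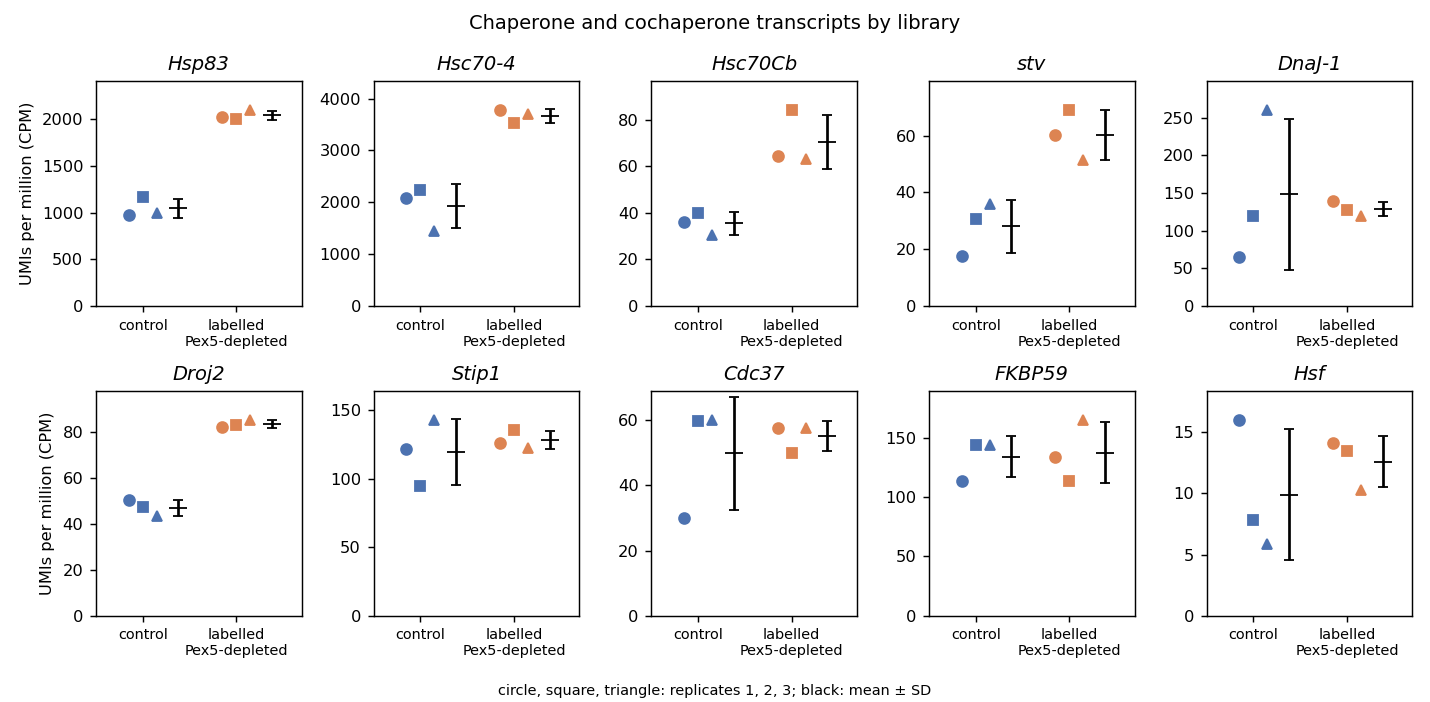
CPM of the 10 genes in each library (y axis, linear from 0, own scale per gene), for control (blue) and libraries labelled Pex5-depleted (orange); circle, square and triangle are replicates 1, 2 and 3, and black bars give mean ± SD, n = 3. Hsp83, Hsc70-4, Hsc70Cb, stv and Droj2 show no overlap between groups, while the other 5 genes do, with DnaJ-1 spread from 65.1 to 260 CPM in the controls.

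Hsp83, the only cytosolic Hsp90 gene of the fly, lies on chromosome 3L (FBgn0001233, 3192969 to 3197059, plus strand; dm6). Its annotation has 2 transcripts of 2 exons each with a common 3′ end. It was counted 3585, 3407 and 3738 times in controls against 5588, 9509 and 6132 times under the Pex5-depleted label. Scaled, that is 973, 1162 and 998 CPM against 2028, 1998 and 2095 CPM. Every library labelled Pex5-depleted lay above every control, and the lowest of them was far above the highest control. On the log2 scale it rose by 0.97 (SE 0.14), the 95% interval ran from 0.67 to 1.26, and adjusted over 5639 genes the edgeR p was 0.00381 (Benjamini-Hochberg). The call held in all 6 fits that left out 1 library, with log2 fold changes of 0.91 to 1.03.

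Hsc70-4, the main constitutive Hsp70 of the cytosol, lies on chromosome 3R (FBgn0266599, 15242687 to 15246614, plus strand). It has 7 annotated transcripts of 1 or 2 exons, again with a common 3′ end, and no other annotated gene overlaps it. It was the most abundant of the 10 genes, at 2085, 2241 and 1444 CPM in controls against 3773, 3520.0 and 3695 CPM in the other group. Control replicate 3 was the lowest library, and the groups did not overlap. Its rise on the log2 scale was 0.93 (SE 0.16; 95% interval 0.58 to 1.28; adjusted p = 0.00977 by edgeR, Benjamini-Hochberg). Leaving out control replicate 1 ended the call (adjusted p = 0.0530, log2 fold change 0.98), as did leaving out Pex5-depleted replicate 2 (0.0518, 0.95).

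The exchange factors of Hsp70 were measured at much lower levels. Hsc70Cb (FBgn0026418, chromosome 3L, 14037019 to 14043686, plus strand) encodes the fly Hsp110, and the annotation now calls it Hsp110. Its values were 36.1, 39.9 and 30.4 CPM in controls against 64.6, 84.1 and 63.2 CPM under the Pex5-depleted label. No library overlapped between the groups, and the log2 fold change was 1.00 (SE 0.24), with an adjusted p of 0.0571 (edgeR, Benjamini-Hochberg). It passed with DESeq2 (0.00724) and in none of the 6 fits without 1 library.

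The gene stv, or starvin (FBgn0086708, chromosome 3L, 13477541 to 13483515, plus strand), encodes a BAG domain protein that binds Hsp70 and takes part in muscle protein quality control. It was at 17.6, 30.7 and 35.8 CPM in controls against 60.3, 68.9 and 51.6 CPM in the other group. Control replicate 1 was the lowest and the groups were apart. Its log2 fold change, 1.11 (SE 0.29), was the largest of the 10, and its adjusted p was 0.0825 (edgeR, Benjamini-Hochberg). It passed with DESeq2 (0.0157) and without a count filter (0.0413), and in none of the 6 fits without 1 library.

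The J-domain genes did not share a pattern. Droj2 (FBgn0038145, chromosome 3R, 13382106 to 13385283, plus strand), a class A Hsp40, had 50.5, 47.1 and 43.5 CPM in controls against 82.0, 82.8 and 85.1 CPM under the Pex5-depleted label. The 3 libraries of each group lay close together and the groups far apart. Its log2 fold change was 0.82 (SE 0.22, adjusted p = 0.0802 by edgeR, Benjamini-Hochberg), and it passed with DESeq2 (0.0127).

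DnaJ-1 (FBgn0263106, chromosome 3L, 5750029 to 5752189, minus strand), a class B Hsp40 also known as fly Hsp40, had 65.1, 120 and 260 CPM in controls against 139, 128 and 120 CPM in the other group. The controls spanned the whole range of the other libraries, from below to far above it. The log2 fold change was -0.20 (SE 0.35), the 95% interval ran from -0.94 to 0.53, and the adjusted p was 0.861 (edgeR, Benjamini-Hochberg). Leaving out control replicate 3 turned it to 0.47, so the sign did not hold without that library. Leaving out control replicate 1 moved it to -0.57.

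The cochaperones that bind Hsp90 showed no change past the test. Stip1 (FBgn0024352, chromosome 2L, 295122 to 297449, plus strand) encodes Hop, which bridges Hsp70 and Hsp90. It was at 122, 94.8 and 143 CPM in controls against 126, 136 and 123 CPM in the other group. The values of the libraries labelled Pex5-depleted all fell within the control range, with a log2 fold change of 0.09 (SE 0.20, 95% interval -0.33 to 0.52).

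Cdc37 (FBgn0011573, chromosome 3L, 1795392 to 1797307, plus strand), which brings kinases to Hsp90, was at 29.9, 59.7 and 60.1 CPM in controls against 57.7, 49.8 and 57.7 CPM in the other group. Control replicate 1 was the lowest, and without it the log2 fold change of 0.14 (SE 0.28) became -0.13. Cdc37 shares 371 exonic bases with genes on the other strand and 3 with a gene on its own. The overlapping genes CG12020 and CR45818 had 37 to 73 and 0 to 5 UMIs per library. Whether counting used strand is not given in the sources used here, so the Cdc37 values are uncertain.

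Fkbp59 (FBgn0029174, chromosome 2L, 9888005 to 9890119, plus strand), an immunophilin with TPR repeats that docks on Hsp90, was at 114, 144 and 144 CPM in controls against 134, 114 and 165 CPM in the other group. The groups overlapped, with the replicate labelled Pex5-depleted 3 above every control and replicate 2 about level with the lowest control. The log2 fold change was 0.04 (SE 0.20), with a 95% interval of -0.40 to 0.47. The sign turned to -0.03 with no composition factor. Over the 3 Hsp90 cochaperones the upper bounds of the log2 intervals, 0.52, 0.74 and 0.47, lay below the estimate of Hsp83, although a missed threshold does not show that they stayed level. The interval of Hsp83 itself began at 0.67, so that of Cdc37 overlapped it.

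Hsf (FBgn0001222, chromosome 2R, 18130303 to 18134634, minus strand) encodes the transcription factor itself. Its activity is set mostly after translation, so its transcript is not a readout of that activity. It was counted 59, 23 and 22 times in controls against 39, 64 and 30 times under the Pex5-depleted label, or 16.0, 7.85 and 5.87 against 14.2, 13.5 and 10.2 CPM. The groups overlapped, with the highest value in control replicate 1. The log2 fold change was 0.35 (SE 0.49), with a 95% interval of -0.70 to 1.39 that is the widest of the 10. A 2.62-fold rise still lay within it.

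**Figure D2:**
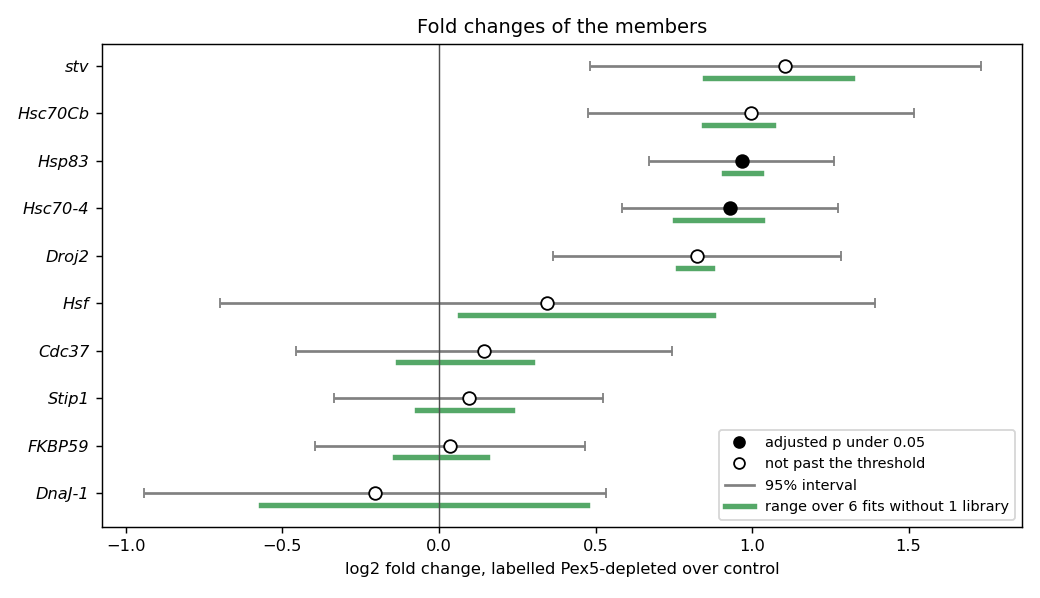
Log2 fold change of each gene, labelled Pex5-depleted over control (x axis), by edgeR with 95% intervals (grey) and the range over the 6 fits without 1 library (green); filled points are past an adjusted p of 0.05. Hsp83 and Hsc70-4 are filled at 0.97 and 0.93, and Hsc70Cb, stv and Droj2 lie between 0.82 and 1.11 with intervals above 0 but are open.

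The order of levels within a group was set on CPM without division by transcript length, since the 3′ method gives each captured molecule a single tag. In the controls Hsc70-4 stood above Hsp83 and Hsp83 above all others in each of the 3 libraries. DnaJ-1, Fkbp59 and Stip1 followed at means of 148, 134 and 120 CPM and could not be ordered beyond their spread. Cdc37 and Droj2 (49.9 and 47.0 CPM) overlapped, as did Hsc70Cb and stv (35.5 and 28.0 CPM), and Hsf was lowest in every library at a mean of 9.91 CPM. In the libraries labelled Pex5-depleted the top and bottom places were the same. Droj2 at 83.3 CPM and Hsc70Cb at 70.6 CPM then ranked above Cdc37 at 55.1 CPM.

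Together the 10 genes took 0.361% ± 0.0253 of UMIs in the controls and 0.626% ± 0.0628 in the other group (SD, n = 3 each). Hsp83 and Hsc70-4 made up 77.2% to 87.1% of those UMIs in the controls and 89.1% to 89.6% in the libraries labelled Pex5-depleted. The other 8 genes summed to 451, 544 and 722 CPM in controls against 677, 676 and 675 CPM in the other group, so their sum overlapped. Variation among replicates was smaller in the libraries labelled Pex5-depleted for 8 of the 10 genes, with coefficients of variation of 2.42% against 9.83% for Hsp83 and 7.44% against 67.7% for DnaJ-1. Hsc70Cb and Fkbp59 were the exceptions, and over all genes with a value 52.9% varied less in that group.

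Counts of the other genes per 1000 Hsp83 UMIs compare each with Hsp90 inside a library. Hsc70-4 was at 2143, 1928 and 1447 per 1000 in controls against 1860, 1761 and 1764 under the Pex5-depleted label, with overlapping groups. Droj2, Hsc70Cb and stv also overlapped, with group means of 45.3 and 40.8, 34.0 and 34.7, and 26.8 and 29.6 per 1000. No shift in these 4 ratios was larger than the spread between replicates.

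The Hsp90 cochaperones had lower ratios to Hsp83 under the Pex5-depleted label in every library. Stip1 had 125, 81.6 and 143 UMIs per 1000 in controls against 62.1, 67.8 and 58.5 in the other group. Fkbp59 had 117, 124 and 144 against 65.9, 57.0 and 78.8, and Cdc37 had 30.7, 51.4 and 60.2 against 28.5, 24.9 and 27.6. The log2 differences in the ratio were -0.86, -0.94 and -0.76. Each had a two-sided exact permutation p of 0.1, the smallest that 3 against 3 libraries allow, and 0.3 after adjustment over the 9 ratios. Since Hsp83 itself rose, 50.8% of all tested genes likewise had a ratio to Hsp83 that was wholly lower, so the drop is not particular to these 3 genes. DnaJ-1 and Hsf also had lower mean ratios, at 143 against 63.1 and 9.70 against 6.20 per 1000, with overlapping groups. Their log2 differences were -0.95 and -0.50. Per 1000 Hsc70-4 UMIs, Stip1 and Fkbp59 also lay wholly lower (adjusted permutation p = 0.45 for each). Cdc37 overlapped there, at 14.3, 26.6 and 41.6 in controls against 15.3, 14.2 and 15.6 (permutation p = 0.3). Hsc70-4 itself also rose, and the share over all genes was not computed for the ratio to it. The lower ratios are therefore not shown to be particular to Stip1 and Fkbp59.

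**Figure D3:**
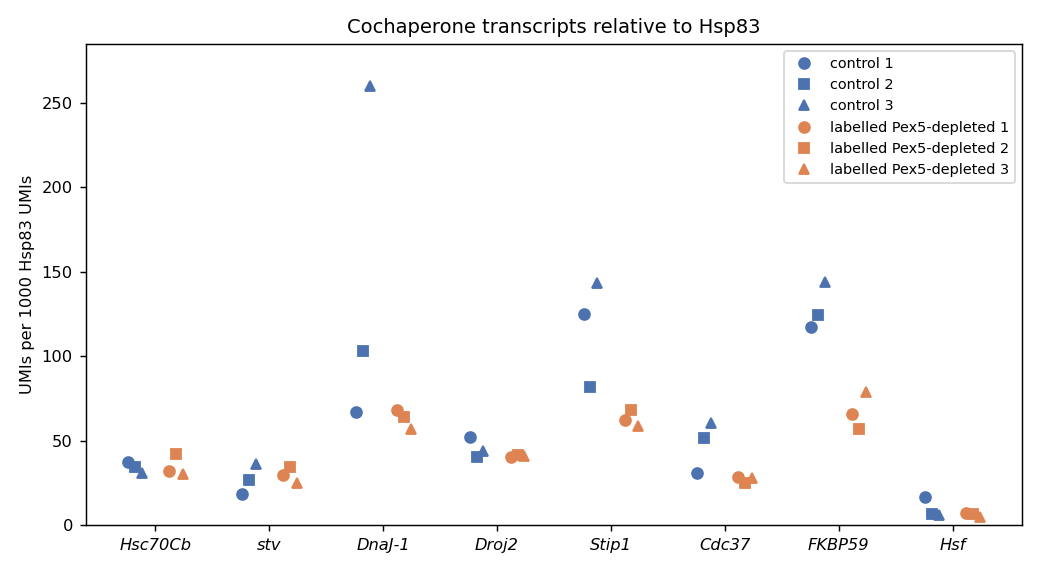
UMIs of 8 genes per 1000 Hsp83 UMIs in each library (y axis, linear from 0), control in blue and labelled Pex5-depleted in orange, with symbols for replicates 1, 2 and 3. Stip1, Cdc37 and FKBP59 lie lower in all 3 orange libraries, while Hsc70Cb, stv, Droj2, DnaJ-1 and Hsf overlap between the groups.

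The inducible heat shock genes (the Hsp70 copies, Hsp68, Hsp60A and the small heat shock genes, 15 in all) also differed between libraries, within groups too. They took 1.45%, 2.33% and 3.22% of UMIs in the controls, against 3.25%, 3.89% and 3.51% under the Pex5-depleted label (replicates 1, 2 and 3 of each). Of 13 tested, 3 passed in the higher direction and 0 in the lower, where 0.833% and 0.816% of all tested genes did. At an unadjusted p under 0.05 edgeR gave 9 higher and 0 lower, against 6.54% and 6.67% over all tested genes. The CPM values of 7 lay wholly above the controls, against 9.74%. The median of their log2 fold changes was 0.72, against 0.03 over all tested genes. The 3 past the threshold were Hsp70Aa, Hsp70Ab and Hsp70Bc, near-identical copies whose separate values are uncertain, at log2 fold changes of 1.69, 1.62 and 1.34. The most abundant, the small heat shock gene Hsp26, was at 12347 ± 4802 against 19056 ± 3000 CPM (SD, n = 3 each, adjusted p = 0.218 by edgeR).

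The members differed in how they lay against that share. Control replicate 3, with the highest share of the controls, was the lowest control for Hsc70-4, Hsc70Cb, Droj2 and Hsf. It was the highest for DnaJ-1, stv, Stip1 and Cdc37, and lay between the other controls for Hsp83 and Fkbp59.

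With the summed inducible CPM as a covariate, a fit added after the data were seen, the log2 fold changes were 0.91 (SE 0.21) for Hsp83 and 1.18 (SE 0.24) for Hsc70-4. Their adjusted p-values were then 0.214 and 0.112 (edgeR, Benjamini-Hochberg), so both calls ended, in a fit with 3 residual degrees of freedom that called 4 genes in all. In the same fit Hsf moved most, from 0.35 to 1.37 (SE 0.67). Hsc70Cb stood at 1.05 (SE 0.38), Droj2 at 0.93 (SE 0.32), stv at 0.59 (SE 0.37), Stip1 at 0.02 (SE 0.29), Fkbp59 at -0.18 (SE 0.29), Cdc37 at -0.37 (SE 0.35) and DnaJ-1 at -1.01 (SE 0.32). None of these 8 passed. The covariate itself went with the label, at 13939, 23929 and 30546 CPM in controls against 30367, 39233 and 39906 CPM in the other group. The fit could thus separate it only poorly from the label, and its part in these changes was not tested.

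**Figure D4:**
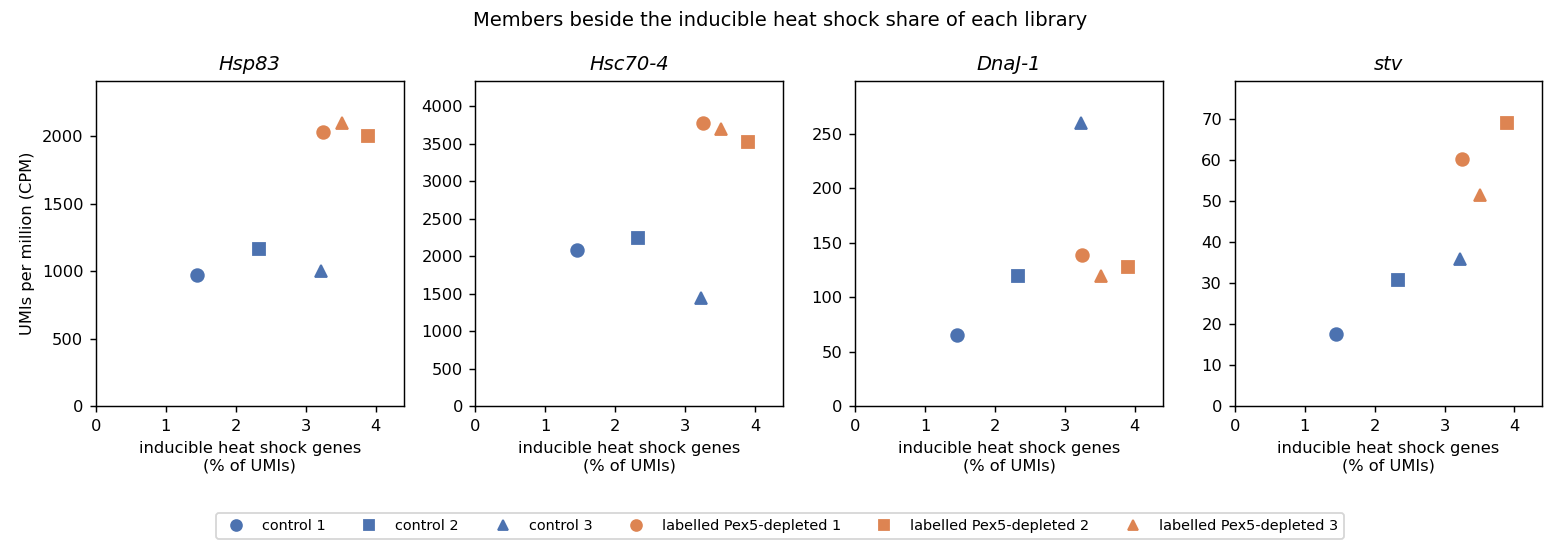
CPM of Hsp83, Hsc70-4, DnaJ-1 and stv (y axes, linear from 0) against the share of UMIs from 15 inducible heat shock genes (x axis, percent) in each library; blue is control, orange labelled Pex5-depleted, and symbols are replicates. The controls spread from 1.45% to 3.22% on the x axis and the other libraries from 3.25% to 3.89%. Hsp83, Hsc70-4 and stv lie higher in the 3 orange libraries than in any blue one, and DnaJ-1 overlaps.

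Beyond the 10 genes, no list of further cochaperones or of Hsp70 and Hsp90 genes outside the inducible set had a gene past the threshold. Of 11 other Hsp90 cochaperone genes 9 were tested, 0 rose and 0 fell, and the median log2 fold change was -0.32. The most abundant was CG16817, which the annotation names p23, a cochaperone that binds the ATP-bound form of Hsp90, at 659 ± 34.0 against 491 ± 37.9 CPM. The smallest p was that of Dpit47, an Hsp90-binding TPR protein, at 22.6 ± 2.22 against 39.9 ± 3.66 CPM (SD, n = 3 each). Both had groups that did not overlap, in opposite directions, and adjusted p-values of 0.211 and 0.202 (edgeR, Benjamini-Hochberg). Of the 9 tested, 1 lay wholly higher and 2 wholly lower, where 9.74% and 9.42% of all tested genes did.

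Of 8 Hsp70 and Hsp90 genes outside the inducible set, among them those for other compartments, 6 were tested. Of these 0 passed, and the median log2 fold change was 0.40. Trap1, the mitochondrial Hsp90, was at 13.1 ± 0.776 against 21.8 ± 2.45 CPM, and Hsc70-3, the BiP chaperone of the endoplasmic reticulum, at 119 ± 31.0 against 138 ± 56.3 CPM (SD, n = 3 each). Of 32 further J-domain genes 25 were tested, 0 passed, and the median was 0.09. P58IPK, an Hsp40 of the endoplasmic reticulum, stood at -0.92 on the log2 scale (SE 0.38; edgeR, adjusted p = 0.309), and the mitochondrial Hsp40 gene l(2)tid at 0.09 (SE 0.27). Of 4 further exchange factor and adaptor genes, all tested, 0 passed, with a median of -0.02, and CG10973 had -0.41 (SE 0.29). At an unadjusted p under 0.05 edgeR gave 2 higher and 1 lower of the 9 Hsp90 cochaperone genes, 1 higher and 1 lower of the 25 J-domain genes, and 0 of the 6 and 0 of the 4 genes of the remaining lists. Over all tested genes 6.54% were higher and 6.67% lower at that p. DESeq2, limma-voom and every other setting run also called 0 genes in these 4 lists. In simulated data the edgeR fit recovered 16% of 2-fold changes, so 0 calls do not show that these genes stayed level.

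The genes whose profile was most like that of Hsp83 were sought among 924 tested genes whose log2 CPM, averaged over the 6 libraries, was at least 6. Likeness was the root mean square difference of log2 CPM over the 6 libraries, each gene centred on its own mean. The nearest were CG8481 (0.11), w (0.14), Gdi (0.15), CG4789 (0.16) and scramb1 (0.16), on the log2 scale. The gene w, or white, encodes an eye pigment transporter, and its mini-white copy is a common marker of fly transgenes. It was at 108, 131 and 139 CPM in controls against 256, 291 and 266 CPM under the Pex5-depleted label. Gdi, which recycles Rab GTPases, was at 81.9 ± 6.85 against 144 ± 5.10 CPM (SD, n = 3 each).

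Around Hsc70-4 the nearest were CG4789 (0.09), Non1 (0.16), Hsp83 (0.17), Gdi (0.18) and CycG (0.19). Non1, a nucleolar GTP-binding protein gene, was at 237, 243 and 163 CPM in controls against 557, 446 and 491 CPM in the other group, and like Hsc70-4 it was lowest in control replicate 3. Of the other members, Droj2, Hsc70Cb and Hsc70-4 were closest to Hsp83 (0.13, 0.17 and 0.17) and DnaJ-1 was farthest (0.75). Droj2 was also at 0.17 from Hsc70-4. It is missing from both lists of nearest genes because its log2 CPM averaged 5.98 over the 6 libraries, just under the lower limit of 6. Since libraries of a group share their label, such distances mostly follow the group difference and describe these 6 libraries.

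**Figure D5:**
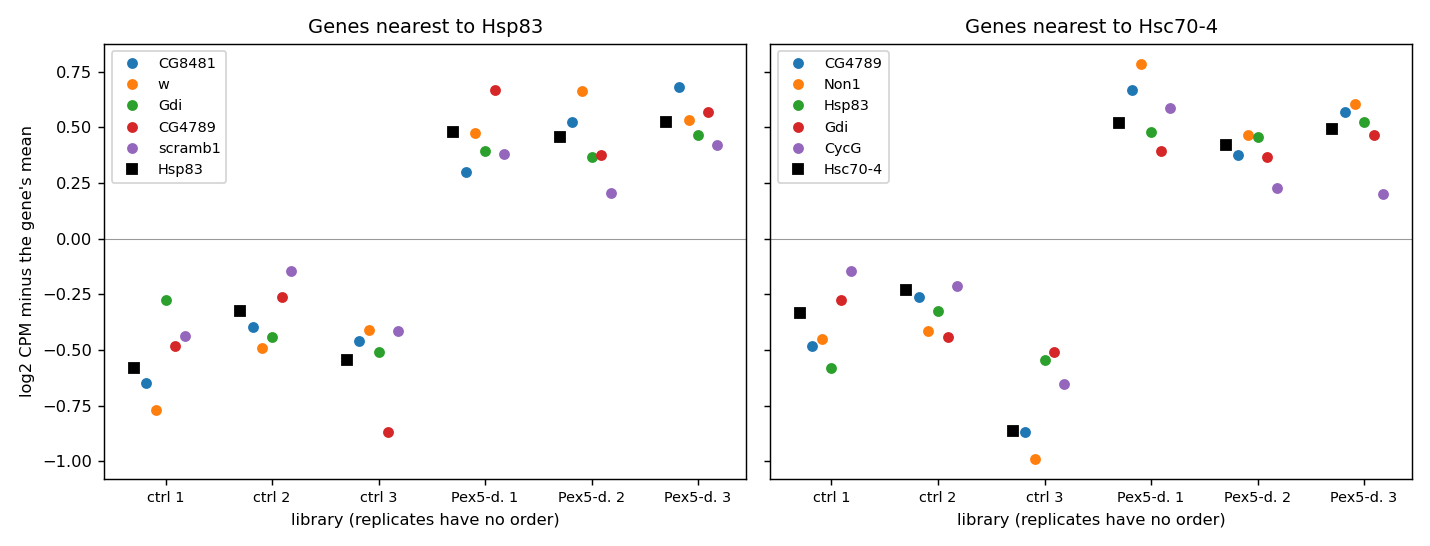
Log2 CPM minus each gene's mean over the 6 libraries (y axis) for Hsp83 and Hsc70-4 (black squares) and the 5 genes nearest to each (coloured points), by library (x axis; ctrl is control, Pex5-d. is labelled Pex5-depleted). All of these genes lie below 0 in the 3 controls and above 0 in the other 3 libraries. Hsc70-4, CG4789, Non1, Gdi and CycG are lowest in control replicate 3.

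The authors' deposited table of fold changes lists Hsp83 at a signed fold of -2.44, Hsc70-4 at -3.27, Fkbp59 at -4.84 and Hsf at 1.12, with 9 of the 10 genes negative. The groups behind its comparison are not named in it, and 85.9% of its genes with a value have a false discovery rate under 0.05, against 1.65% called here. In that table LysD and Tsp2A are both negative as well. Since its groups are not named, its sign was read for no direction. The share of negative genes over that whole table was not computed, so the count of 9 stands without it.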

How the data were processed

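The authors deposited UMI counts per gene and well index from QIAseq UPX 3′ libraries of sorted progenitor cells, per the labels' protocols. HISAT2, StringTie, DESeq2 and dm6 are named, without roles, in the submitters' processing notes. Reads mapping to several loci were dropped, per the file headers of the deposited run metrics, a table of whole-run totals with other values such as reads per UMI. The authors' deposited table of fold changes gives a signed fold score, p-values and false discovery rates and entered no test. A further 29 well columns match no sample and were not used. The 6 spike-in rows (7 UMIs) were left out.

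Counts were tested with edgeR 4.0.16 (R 4.3.3): TMM factors, filterByExpr with a minimum count of 10, quasi-likelihood F test, no covariate, and Benjamini-Hochberg adjustment over 5639 genes at 0.05. SE is the log2 fold change divided by the square root of F. Profiles used log2 CPM with a prior count of 2. Ratios were compared by exact permutation of libraries. Alternatives used RLE or no factors, DESeq2 1.42.0, limma-voom (limma 3.58.1), other filters, left-out libraries, a replicate block, and 2 settings chosen after seeing the data. The edgeR fit was first tested on simulated data.

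The named genes were the members, the leading genes of each related list by smallest p or level, and the 5 profiles nearest to Hsp83 and to Hsc70-4. Members, lists and tests were chosen with earlier results of these data known. Replicates are called biological in the labels, and no pair within a group agreed within counting noise (chi-square over its degrees of freedom from 10.3 to 16.3). Gene structures come from Ensembl release 115 of BDGP6, in which all 10 members had the same start and end.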

Additional observations from a re-analysis of the deposited data

How the results depend on the processing

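The count of members past the threshold was 2 in the main analysis and 2 with RLE factors, with no composition factor, with limma-voom, with 10 UMIs in 3 libraries, with the replicate block and when scaled without mitochondrial and inducible heat shock rows. It was 3 with no count filter, 5 with DESeq2 and 0 with the inducible heat shock CPM as a covariate, and between 1 and 2 without 1 library. Among all tested genes 93 were called, and there were 208 with DESeq2, 197 with no count filter, 4 with the covariate and 17 to 80 without 1 library. The related lists together had 3 calls, which became 5 with limma-voom, 8 with no count filter, 0 with the covariate and 0 to 4 without 1 library. The replicate block gave 58 calls over all genes and 6 in the lists. Nothing in the labels pairs same-numbered libraries, and their deviations correlated at -0.01, -0.05 and 0.01, so the number was taken as a name only. The cause of these moves was not tested, save that leaving out a library or adding a covariate also leaves fewer degrees of freedom.

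Among the named genes, signs turned only for genes that did not pass in the main analysis. Fkbp59 was at -0.0346 with no composition factor, -0.0303 with no count filter and -0.18 with the covariate, and DnaJ-1 at 0.0133 with limma-voom and 0.0153 with the replicate block. Cdc37 was at -0.37 and Hsp26 at -0.0697 with the covariate. Without 1 library, log2 fold changes ranged from -0.57 to 0.47 for DnaJ-1, -0.13 to 0.30 for Cdc37, -0.14 to 0.15 for Fkbp59, -0.0696 to 0.234 for Stip1, -0.10 to 0.33 for l(2)tid, -0.13 to 0.45 for Hsc70-3 and -0.0293 to 1.76 for Pex5. Hsp83 passed in each setting except the covariate. At the depth of Hsf (22 to 64 UMIs) only large changes would be seen.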
